A study of Mus musculus with 2 samples.

Results

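Shared peaks in later introns are stretches of DNA, open to the nuclease DNase I in both libraries of mouse calf muscle, that lie inside a gene but past its first intron. A shared peak was a merged region in which a peak of each library's longer peak list overlapped by at least 1 bp. It was kept when its midpoint fell in the second or a later intron of the longest transcript of a protein-coding gene, outside every annotated exon and more than 1 kb from every annotated transcript start. Of 49160 shared peaks, 6954 met the rule (14.1%, 95% exact Clopper-Pearson interval 13.8 to 14.5). The rule used the positions of peaks and genes and no motif or footprint. Signal entered only to pick, where a region held several peaks of a library, the peak whose midpoint was used.

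The study applied DNase-seq, which sequences the ends left by DNase I cuts in nuclei, to gastrocnemius, the large and mainly fast calf muscle. The mice were B6CASTF1/J females aged 2 months, so each cell carries a C57BL/6J-type and a CAST-type copy of its chromosomes, while positions were given on the C57BL/6J-based build mm10. There was 1 group with 2 libraries, biological replicates 1 and 2, from separate biosamples that share a donor identifier, so an SD between them may be partly technical. The tissue was whole muscle: fewer cells of a type and less open DNA per cell cannot be told apart. No treatment or genotype contrast exists here, and with 2 libraries the smallest two-sided p of an exact permutation test is 0.5, so values are given with their spread and counting intervals and without tests. All intervals below are at the 95% level and cover counting error only. Replicate 1 had 66984 peaks and replicate 2 had 258342, and sequencing depth is unknown. The lower count of replicate 1 therefore limits which sites could be shared.

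Introns are copied into RNA with the rest of a gene and then removed, and much of their DNA has no known role. Parts of them hold enhancers, stretches bound by transcription factors that raise transcription of the host gene or of a neighbour, and others hold start sites of alternative transcripts or sites of CTCF, the zinc-finger protein that anchors chromatin loops. In skeletal muscle, the MyoD family and its E-protein partners bind E-boxes, MEF2 proteins bind an AT-rich element, AP-1 is the dimer of FOS and JUN proteins, and the glucocorticoid receptor binds paired half-sites after hormone exposure.

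The sequences below show the kinds of DNA found among the members. Each is the 150 bp around the midpoint, taken from the plus strand of GRCm38.p6, the assembly behind mm10, and so shows the C57BL/6J-type copy. The best-ranked member of all, in intron 5 of Prdm2, is shown with CCAAT boxes, read on either strand, in capitals.
Prdm2, chr4:143162141-143162290: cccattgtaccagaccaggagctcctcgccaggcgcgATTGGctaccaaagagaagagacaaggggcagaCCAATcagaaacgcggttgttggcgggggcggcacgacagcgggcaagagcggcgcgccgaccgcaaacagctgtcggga

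The following 4 members are shown for the E-box CAGCTG, in capitals, which was the commonest of the enriched motifs. Igf1r encodes a growth factor receptor, Nfix a transcription factor of the NFI family that acts in muscle maturation, Fkbp5 a co-chaperone of the glucocorticoid receptor, and Pfkm the muscle phosphofructokinase of glycolysis.
Igf1r, chr7:68129141-68129290: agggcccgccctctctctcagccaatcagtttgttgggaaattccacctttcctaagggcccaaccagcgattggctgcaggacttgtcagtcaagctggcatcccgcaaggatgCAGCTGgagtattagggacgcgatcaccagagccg
Nfix, chr8:84735641-84735790: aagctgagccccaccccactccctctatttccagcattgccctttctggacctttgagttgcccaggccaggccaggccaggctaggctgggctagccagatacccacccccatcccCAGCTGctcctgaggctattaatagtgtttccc
Fkbp5, chr17:28424471-28424620: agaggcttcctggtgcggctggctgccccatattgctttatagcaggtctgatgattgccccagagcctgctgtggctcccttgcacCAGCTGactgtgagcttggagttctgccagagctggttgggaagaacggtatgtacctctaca
Pfkm, chr15:98119456-98119605: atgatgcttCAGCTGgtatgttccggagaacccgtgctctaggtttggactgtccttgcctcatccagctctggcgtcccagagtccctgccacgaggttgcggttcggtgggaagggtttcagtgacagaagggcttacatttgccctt

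The next 2 members are the best-ranked ones, over 1 kb from any RefSeq start, that hold a CTCF element and a glucocorticoid receptor element. The element is in capitals, on either strand.
Ddc, chr11:11844456-11844605: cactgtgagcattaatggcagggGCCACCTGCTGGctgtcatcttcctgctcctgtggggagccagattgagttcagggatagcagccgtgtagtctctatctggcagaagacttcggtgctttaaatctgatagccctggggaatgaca
Fbxo31, chr8:121563126-121563275: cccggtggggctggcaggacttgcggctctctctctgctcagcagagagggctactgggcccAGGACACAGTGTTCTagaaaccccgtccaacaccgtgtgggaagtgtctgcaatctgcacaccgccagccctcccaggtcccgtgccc

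Signal in these members is the authors' deposited value per peak, whose unit is not stated. It was used only to rank a peak within its own library. The Prdm2 member, at intron 5 of 9 of a gene for a zinc-finger histone methyltransferase, had a signal of 13.2 in replicate 1 and 45.9 in replicate 2, at the 99.8 and 99.97 percentiles of the 2 lists. It lay 4387 bp from the nearest GENCODE start but 64 bp from a start annotated by RefSeq, and its CpG observed over expected ratio was 0.987. The Igf1r member, 176389 bp into the gene, had signals of 9.71 and 34.1. The Nfix member reached the 88.5 and 96.4 percentiles, and the Fkbp5 member the 92.0 and 94.6 percentiles. The Pfkm member reached the 86.9 and 94.7 percentiles. The CTCF member of Ddc (aromatic amino acid decarboxylase) had signals of 6.85 and 11.2, and that of Fbxo31 (a ubiquitin ligase subunit) with the glucocorticoid receptor element had 4.98 and 6.90. All of these stood in the top 20% of both lists.

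Other best-ranked members lay in Mrps27 (a mitochondrial ribosome protein), Igf1r, Trpm3 (a cation channel), Foxk1 (a forkhead repressor), Rhoq (a small GTPase of insulin-driven glucose transport), Sptbn4 (a spectrin), Pptc7 (a mitochondrial phosphatase) and Atoh8 (a bHLH factor). The member in intron 2 of Mrps27, at chr13:99353261-99353460, had signals of 10.1 and 38.9. The one in intron 2 of Foxk1, at chr5:142440541-142440800, had 7.03 and 20.4. The Sptbn4 member lay in intron 33 of 35 and had 7.32 and 13.4. Trpm3's member, in intron 19 of 24, had 7.25 and 22.2 and lay 830 bp from a RefSeq start. The members as a whole ranked low among all shared peaks: 126 shared peaks ranked above the Prdm2 member. Of the 1000 best-ranked shared peaks, 4 were members (0.4%), and of the best 5000, 103 were (2.06%), against 14.1% of all.

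The members took up introns thinly. Eligible DNA, outside exons and over 1 kb from starts, came to 560.2 Mb in later introns and 191.6 Mb in first introns. Later introns held 12.4 shared peaks per Mb (Poisson interval 12.1 to 12.7) and first introns 19.7 (19.1 to 20.4), a ratio of 0.630. Intergenic DNA held 7.95 per Mb. The gap between later and first introns was narrower farther from the transcript's own start. At 1 to 5 kb from the transcript's own start, later introns held 18.2 per Mb (16.3 to 20.3) and first introns 30.1 (28.3 to 32.0), a ratio of 0.606. At 50 to 100 kb the values were 14.5 (13.8 to 15.2) and 15.7 (14.2 to 17.3), and past 100 kb they were 9.51 (9.13 to 9.90) and 9.92 (8.82 to 11.1). In those last bands the intervals overlapped. By distance to the nearest start of any transcript, the ratio was 0.604 at 1 to 5 kb, 0.898 at 25 to 50 kb and 0.627 past 100 kb, so it did not level off in the same way.

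**Figure D1:**
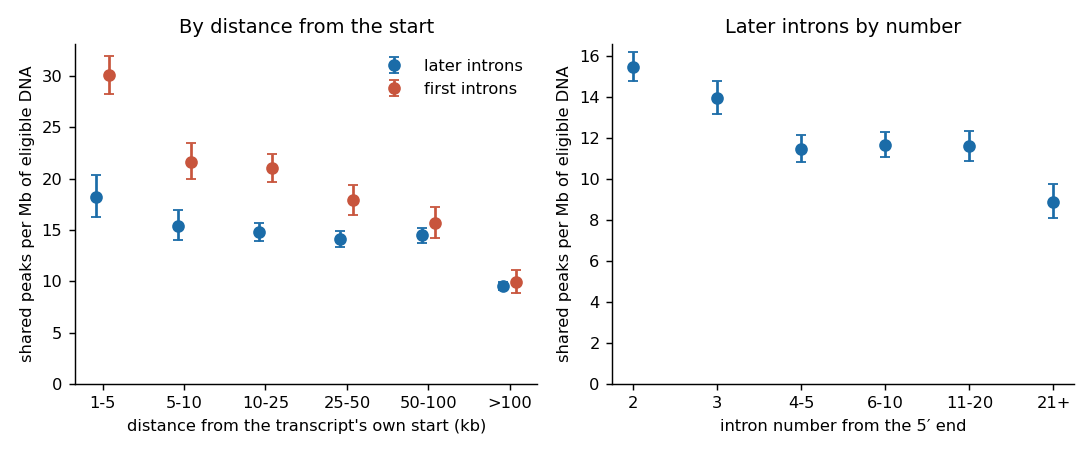
Shared peaks per Mb of eligible intron DNA, with exact Poisson 95% intervals. Left, later and first introns by distance from the transcript's own start, where the 2 series approach each other past 50 kb; right, later introns by number, from 15.4 per Mb in intron 2 to 8.88 in introns 21 and above.

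Density was also lower in introns farther along the gene. With a member counted once for each host gene, the second intron held 15.4 shared peaks per Mb (14.8 to 16.2), the third 13.9 (13.1 to 14.8), introns 11 to 20 held 11.6 (10.9 to 12.3) and introns 21 and above 8.88 (8.07 to 9.75). The median member lay in intron 4 of a transcript with 13 introns, 60052.5 bp from its own start and 10621 bp from the nearest start. The median host intron was 14116.5 bp long. Within it, 50.3% of members (49.1 to 51.4) were nearer the 5′ splice site, an interval that holds an even split. Another member lay within 5 kb of 2614 members (37.6%).

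Few members looked like promoters, which was partly set in advance because the rule left out sites within 1 kb of an annotated start. By sequence, 220 (3.16%, 2.76 to 3.60) were CpG rich, with at least 50% G and C and a CpG ratio of at least 0.6, against 6.06% (5.32 to 6.87) of first-intron, 9.02% (8.49 to 9.57) of intergenic and 64.4% (63.8 to 65.0) of promoter shared peaks. RefSeq placed a transcript start within 1 kb of 210 members (3.02%), which GENCODE did not. Among CpG-rich members this share was 10.5% (23 of 220), and among the others 2.78% (187 of 6734). Of the 100 best-ranked members, 10 lay within 1 kb of a RefSeq start and 15 were CpG rich. The median window had 54.7% G and C, against 46% in windows 1 kb away, and a mean of 7.03% of its bases were repeat-masked.

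Members were narrower and weaker than promoter peaks and close to first-intron peaks. The median width was 227 bp, against 280 bp at promoters and 240 bp in first introns. The median signal percentile was 52.2 in replicate 1 and 86.7 in replicate 2. It was 56.2 and 87.9 for first-intron and 76.2 and 93.7 for promoter shared peaks. The gap to promoters had the same direction in both libraries. The Spearman correlation of signal between libraries was 0.822 across 6954 members, given as a description since members share the libraries. It was 0.826 in first-intron, 0.843 in intergenic, 0.946 in promoter and 0.899 in all shared peaks. In other-intron and exon shared peaks it was 0.828 and 0.829. The members' value was thus the lowest, but close to those of first introns, other introns and exons. At the distance line of the rule, 91 members at 1000 to 1100 bp from a start had median percentiles of 53.3 and 85.8, and 491 shared peaks at 900 to 1000 bp, which the rule left out, had 56.2 and 86.8.

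Cut-rate segments and footprints were not used by the rule but come from the same alignments as the peaks. Their overlap with the members is therefore not independent evidence. Segments in which the authors' cut-rate test had a value of at most 0.05, corrected for false discoveries, covered 87.5% of the 150 bp windows of members in replicate 1 and 97.3% in replicate 2. Windows 1 kb away, outside any peak, were covered to 0.774% and 3.36%. That gap was largely set in advance, since these windows were chosen to hold no peak. Over all shared peaks the windows at the midpoint were covered to 91.3% and 97.8%. Footprints are short stretches protected from cutting inside open DNA. At least 1 of the library's own footprints overlapped 85.8% of members in replicate 1 (84.9 to 86.6) and 91.5% in replicate 2 (90.9 to 92.2). The mean was 88.7% ± 4.09 (SD, n = 2). Footprints of both libraries were present in 79.9% (78.9 to 80.8), against 79.6% of all shared peaks, which is the background for this count. The members' share was near that background. The share with a footprint rose with signal, in replicate 1 from 53.5% (49.0 to 58.0) of members in the lowest 20% of the list to 97.9% (96.7 to 98.8) in the highest.

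**Figure D2:**
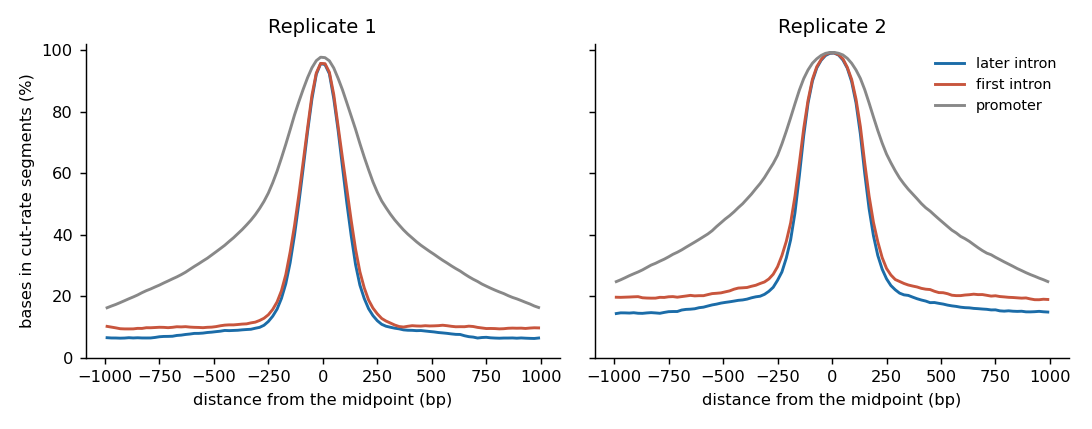
Share of bases in cut-rate segments by distance from the midpoint, in bins of 20 bp, for later-intron, first-intron and promoter shared peaks in each replicate. Lines are means over all shared peaks of a location; later-intron and first-intron profiles nearly coincide at the centre, and the promoter profile is wider.

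Recurrence of the sites between libraries depended on their strength. Replicate 1 had 10148 peaks that met the location rule on their own, and 69.9% (69.0 to 70.8) overlapped a peak of replicate 2, against 76.8% (76.5 to 77.2) of all its peaks. The share was 18.2% (16.8 to 19.7) in the lowest 20% of replicate 1's list, against 23.9% of all peaks there. It was 77.2% (75.5 to 78.9) in the next 20%, against 74.6% (73.9 to 75.3) of all peaks. In the highest 20% it was 99.9% (99.3 to 99.997), against 99.5% (99.3 to 99.6) of all peaks. Replicate 2 had 55252 such peaks, of which 13.0% (12.7 to 13.2) overlapped one of replicate 1, against 20.2% of all its peaks. In the highest 20% of replicate 2's list, 65.2% (64.1 to 66.3) did, against 75.9% (75.6 to 76.3) of all peaks there. Weak later-intron sites of replicate 2 were thus mostly not members, and their openness in replicate 1 was not detectable in its list.

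The E-box CAGCTG, the form preferred by MyoD and myogenin, lay in 1827 members (26.3%, 25.2 to 27.3), against 7.01% (6.53 to 7.51) of 10712 peak-free windows 1 kb away, which 6292 members had, a ratio of 3.75. It lay in 19.2% of all shared peaks. The share was 25.8% in first-intron, 23.4% in intergenic and 12.4% in promoter shared peaks. Members were richer in G and C than their flanks, and within bands of equal GC content the ratio was 2.45. More than 1 site occurred in 256 members. The share rose with strength, from 19.99% (17.9 to 22.2) in the weakest 20% of members to 32.4% (29.9 to 34.9) in the strongest. The other E-boxes moved less: CAGGTG, bound by E-proteins and by ZEB repressors, had a ratio of 1.25, and 0.832 in GC bands, so its direction depended on GC. CACGTG, bound by clock and MYC-type factors, had 1.82 and 1.58.

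AP-1 elements (TGACTCA or TGAGTCA) lay in 526 members (7.56%, 6.95 to 8.21), against 2.49% (2.21 to 2.81) of flanks, a ratio of 3.03, and against 5.29% of all shared peaks. In GC bands the ratio was 3.32. AP-1 elements lay in 7.62% of first-intron, 9.03% of other-intron, 7.90% of intergenic and 2.36% of promoter shared peaks. Their frequency was thus not particular to the members. The overlapping MAF element, which contains an AP-1 core, lay in 51 members, at 4.91 times its flank share (0.733% of members, 0.551% of all shared peaks). The MAF share was 0.768% in first-intron, 0.890% in other-intron and 0.842% in intergenic shared peaks. The glucocorticoid receptor element, an inverted repeat, lay in 52 members (0.748%, against 0.460% of all shared peaks) and 12 flanks, 6.68 times as often. The ratio was 9.58 in first introns and 10.8 in other introns, so it was not particular to the members. Its share was 0.216% in the weakest 20% of members (0.0445 to 0.629) and 1.29% in the strongest (0.769 to 2.04). ROR elements, bound by orphan receptors of the clock, lay in 80 members (1.15%, against 0.732% of all shared peaks), at a ratio of 2.09. The ROR ratio was 3.34 in first introns, 2.87 in other introns and 1.98 in intergenic DNA.

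MEF2 elements lay in 159 members (2.29%, 1.95 to 2.67) and in 2.60% of flanks (2.30 to 2.91), a ratio of 0.881 with overlapping intervals. Over all shared peaks the share was 1.495% (1.39 to 1.61). It was 2.57% in first-intron, 1.94% in other-intron, 1.89% in intergenic and 0.824% in promoter shared peaks. This AT-rich element is rarer in GC-rich DNA. In windows of 50 to 60% G and C it lay in 97 of 4917 members (1.97%, 1.603 to 2.40) and in 9 of 3071 flanks (0.293%, 0.134 to 0.556). In windows of 40 to 50% it lay in 6.11% of members (4.66 to 7.84) and 1.71% of flanks (1.37 to 2.11). Weighted over such bands the ratio was 5.18, so its direction turned with the treatment of GC. GATA elements (AGATAAG) and SOX elements (ACAA, then A or T, then A or G, then G) were less frequent than in flanks, at ratios of 0.485 and 0.481, and at 0.712 and 0.658 in GC bands. Of 30 motifs searched on both strands, 14 were at least 1.5 times as frequent in members as in flanks with intervals apart, and 12 of these kept that ratio in GC bands. These counts leave out the NFI element, in 9 members and 0 flanks, for which no ratio was formed.

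**Figure D3:**
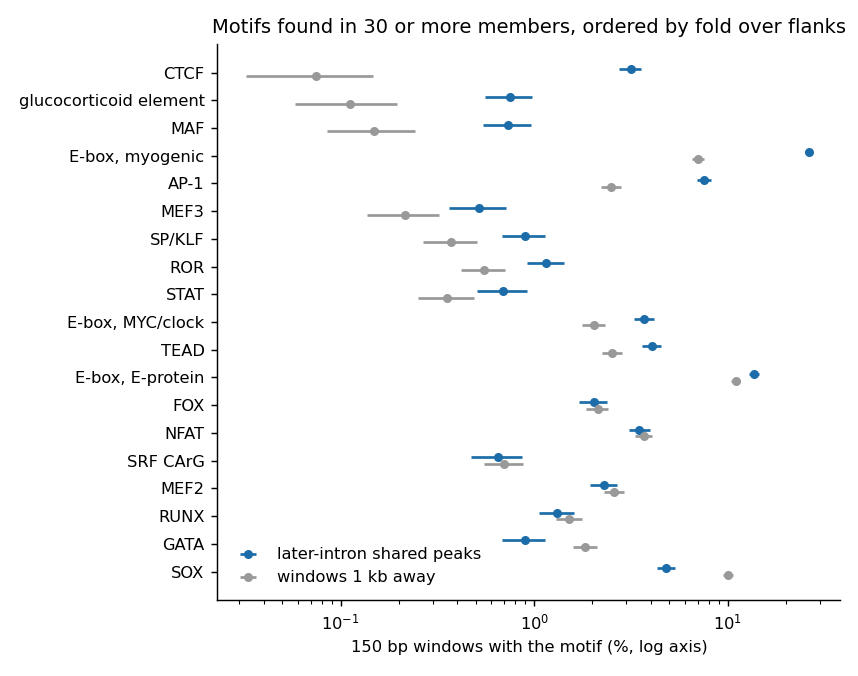
Share of 150 bp windows with each motif (log axis), with exact 95% intervals, in later-intron shared peaks and in windows 1 kb away that hold no peak or exon, for motifs in 30 or more members. CTCF, at 3.15% against 0.0747%, has the widest gap, and SOX and GATA lie lower in members than in flanks.

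CTCF elements lay in 219 members (3.15%, 2.75 to 3.59) and in 8 of 10712 flanking windows (0.0747%, 0.0322 to 0.147), a ratio of 42.2 that rests on those 8. It was 22.3 in GC bands, 7.94 with the strongest 20000 peaks of each library, and 24.9 and 17.7 for the peaks of replicates 1 and 2 alone. The share was 1.40% (1.05 to 1.83) in first-intron, 4.13% (3.77 to 4.52) in intergenic and 0.907% in promoter shared peaks, and 2.17% over all shared peaks. The interval of the members lay above that of first introns and below that of intergenic DNA. It overlapped those of other-intron (2.48%, 1.97 to 3.09) and exon shared peaks (2.625%, 2.02 to 3.35). The ratio to flanks was 62.5 in other introns, 54.3 in intergenic DNA and 16.2 in first introns, so a high ratio was not particular to the members. CTCF members were not the strongest. Their share was 5.11% (4.01 to 6.40) in the middle 20% of members by strength and 0.863% (0.447 to 1.502) in the strongest. With CTCF the median width was 200 bp, and 229 bp without. An E-box CAGCTG was present in 13.2% (9.05 to 18.5) of members with a CTCF element and in 26.7% (25.6 to 27.8) of those without.

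Motif sites differed in how often a footprint covered them. Of 221 CTCF sites in members, 68.8% (62.2 to 74.8) overlapped a footprint in replicate 1 and 78.7% (72.7 to 83.9) in replicate 2. The same positions moved by 50 bp gave 17.2% and 18.6%, so the ratio of site to moved position was 4.12 ± 0.172 (SD, n = 2). E-box sites gave 23.6% and 31.7%, against 19.7% and 27.1% when moved, a ratio of 1.19 ± 0.0214. AP-1 sites gave a ratio of 1.11 ± 0.0457. MEF2 sites had ratios of 1.18 in replicate 1 and 0.525 in replicate 2, which differ in direction. CTCF sites on the strand of the gene numbered 104 of 221 (47.1%, 40.3 to 53.9).

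**Figure D4:**
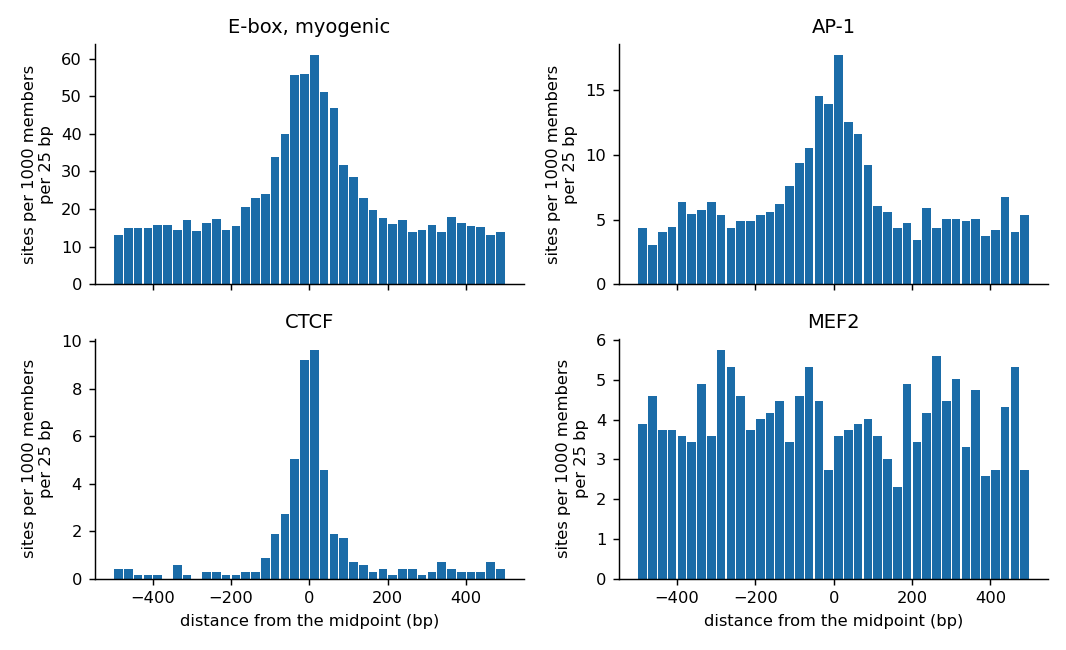
Motif sites per 1000 members in bins of 25 bp by distance from the midpoint. The E-box is highest at 60.8 per 1000 at 12.5 bp and stands at 13.8 at 487.5 bp; CTCF falls from 9.63 at 12.5 bp to 0.719 at 112.5 bp; MEF2 has no central maximum.

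The members belonged to 3038 of 16627 protein-coding genes with eligible later-intron DNA, which makes 18.3% (17.7 to 18.9) the background for gene lists. Of these genes, 1595 had a single member and 348 had 5 or more. Long genes held more: eligible DNA had a median of 43.3 kb in genes with a member and 7.5 kb in genes without. Tns1, which encodes tensin at focal adhesions, had 35 members in 137.4 kb, the most of any gene. Their signals ran from 0.164 to 3.51 in replicate 1 (median 1.11) and from 0.101 to 9.07 in replicate 2 (median 1.84). They spread over introns 2 to 34, and the 8 in introns 26 to 34 stood between the 5.44 and 59.9 percentiles of replicate 1. Zbtb16, a zinc-finger regulator and ubiquitin ligase adaptor, and Msi2, an RNA-binding protein, had 20 each. Gm37240, a predicted gene that spans 1244 kb of eligible DNA, also had 20. Prkca (protein kinase C alpha) had 19, and Ttc7b, Rad51b, Lpp, Auts2 and Camta1 had 17 each.

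Genes were also ranked by members per length, among those with at least 5 members. Under that filter a short gene that passes must rank high, so the lead of short genes was partly fixed in advance. Over all eligible genes, density was 35.3 members per Mb in the shortest 10% and 10.3 in the longest 10%. Among the leading genes, Pygm and Atp2a1 have known roles in muscle. The share of muscle genes in this ranking was not set against that of all genes. Among genes with at least 5 members, Dnajb12 (a co-chaperone) had 14.6 members per 10 kb, Pdlim4 (an actin-linked LIM protein) 14.1 and Coq8a (a kinase-like protein of coenzyme Q synthesis) 11.1. Mknk2 (a kinase of translation) had 10.4, Pygm (muscle glycogen phosphorylase) 8.80, P4ha2 (a collagen prolyl hydroxylase) 8.66, St3gal4 (a sialyltransferase) 7.74, Atp2a1 (the fast-muscle calcium pump) 6.99 and Hoxa3 6.86. Gm21887, a predicted gene on X, had 8.66, a value that is uncertain if near-identical copies share its reads. In such genes peaks took up much of the intron DNA: in Coq8a, 38.7% lay under peaks of replicate 1 and 39.5% under those of replicate 2. In Dnajb12 it was 61.3% and 37.9%. The part of this crowding in the overlap between libraries was not tested. A split of the 348 genes with 5 or more members by members per 10 kb was chosen after values were seen. In it, the top 20% of genes had the E-box CAGCTG in 17.6% of members (14.5 to 21.01), and the lowest 20% in 28.1% (24.2 to 32.3). Their members were also wider, with a median of 280 bp against 220 bp.

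The fast-fibre list had the most members per Mb of the lists of muscle function. In the fast-fibre list, 9 of 18 eligible genes had a member, with 44 members in all and 199.4 per Mb (144.9 to 267.7), against 12.5 per Mb over all genes. Pfkm, Atp2a1 and Pvalb held 12, 8 and 7 of these, and Actn3, Myh1, Myh2 and Myh4 had none. The same introns had 367.1 peaks per Mb in replicate 1 and 557.5 in replicate 2, against 18.2 and 99.3 over all genes. In the slow-fibre list it was 3 of 15, with 4 members and 15.7 per Mb (4.28 to 40.2). The list of glycolysis and glycogen use had a member in 12 of 24 genes and 54.0 per Mb, that of proteolysis and atrophy in 10 of 19 and 74.5 per Mb, that of the sarcomere in 17 of 28 and 49.5 per Mb, and that of insulin signalling in 13 of 23 and 46.1 per Mb. The list of muscle transcription factors had one in 20 of 34 and 34.2 per Mb, and that of calcium release in 14 of 22 and 28.2 per Mb. The dystrophin complex had one in 14 of 19 genes but 7.70 per Mb (5.16 to 11.1), with Dmd, at 1 member in 2024 kb, in the list. Fat oxidation had one in 8 of 22 and 15.9 per Mb (7.64 to 29.3), an interval that holds the value of all genes. Circadian genes had one in 7 of 19 and 33.6 per Mb, and the neuromuscular junction in 4 of 17, with 4.53 per Mb (1.47 to 10.6). Median members per eligible gene were 1 in the sarcomere list, 0.5 in the fast-fibre list and 0 over all genes. These lists share genes: Pfkm and Atp2a1 each stand in 2 of them. Median eligible DNA per gene was 44.5 kb for muscle transcription factors and 33.4 for calcium release. It was 32.6 for insulin signalling and 31.2 for the dystrophin complex, against 9.64 for fast-fibre genes and 10.2 over all genes. Over all genes the share with a member was 24.2% at 23.7 to 38.0 kb and 38.1% at 38.0 to 75.7 kb. The part of length in the lists' shares was not tested.

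The members of these genes differed in strength. Pfkm had 12 members, 7 of them in intron 2. Their signal percentiles ran from 18.9 to 86.9 in replicate 1 (median 44.8) and from 59.0 to 94.7 in replicate 2 (median 76.9). Atp2a1 had 8, with medians of 47.4 and 77.6. The strongest of these, in intron 5 at chr7:126459201-126459560, had signals of 2.78 and 3.49, and the next had 1.19 and 2.16. Pygm had 6, with medians of 49.0 and 70.2, and Pvalb, the calcium buffer of fast fibres, had 7, with medians of 34.1 and 72.7. Titin's gene Ttn had 12 members among 346 introns, with medians of 18.9 and 46.4. A run of 9 of them lay in introns 41 to 61, all at or below the 36.5 percentile of replicate 1. The strongest Ttn member, in intron 222, stood at 79.4 and 92.2. The medians of Pfkm, Atp2a1, Pygm and Pvalb in replicate 1 all lay below the 52.2 of all members.

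Other genes had fewer or stronger members. Nfix had 13, with medians of 83.2 and 94.1. All 13 stood in the top 20% of replicate 2, as did 5017 of all 6954 members. In the top 20% of replicate 1 stood 8 of the 13, against 816 of all members. Cacna1s, the voltage sensor of the T-tubule, had 5, with medians of 79.9 and 92.5, and 4 lay in intron 2. Neb (nebulin) had 4 in 156 introns. Fkbp5 had 4, with medians of 77.5 and 93.1. Zbtb16 had medians of 80.7 and 92.6. Foxo3, an effector of atrophy signalling, had 13, with percentiles from 5.44 to 92.4 in replicate 1; replicate 2's peaks covered 27.7% of its later introns. Mef2d had 5, all in intron 8, at medians of 15.5 and 42.3. Ppargc1a, the coactivator of mitochondrial biogenesis, had 1, at 70.5 and 91.2, and Pax7, of satellite cells, had 5. Per1 had 3, Rora 5, Sox6 8 and Nfatc1 2. Dmd had 1 in 2024 kb, at 11.8 and 48.6. Ryr1, Mef2c and Foxo1 had 0 members. For Ryr1 and Mef2c, replicate 2 had 18 and 12 peaks with a midpoint in later introns and replicate 1 had 0, although peaks of replicate 1 centred elsewhere covered 0.222% and 0.640% of their later-intron DNA. Foxo1 had 0.605 kb of eligible DNA.

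**Figure D5:**
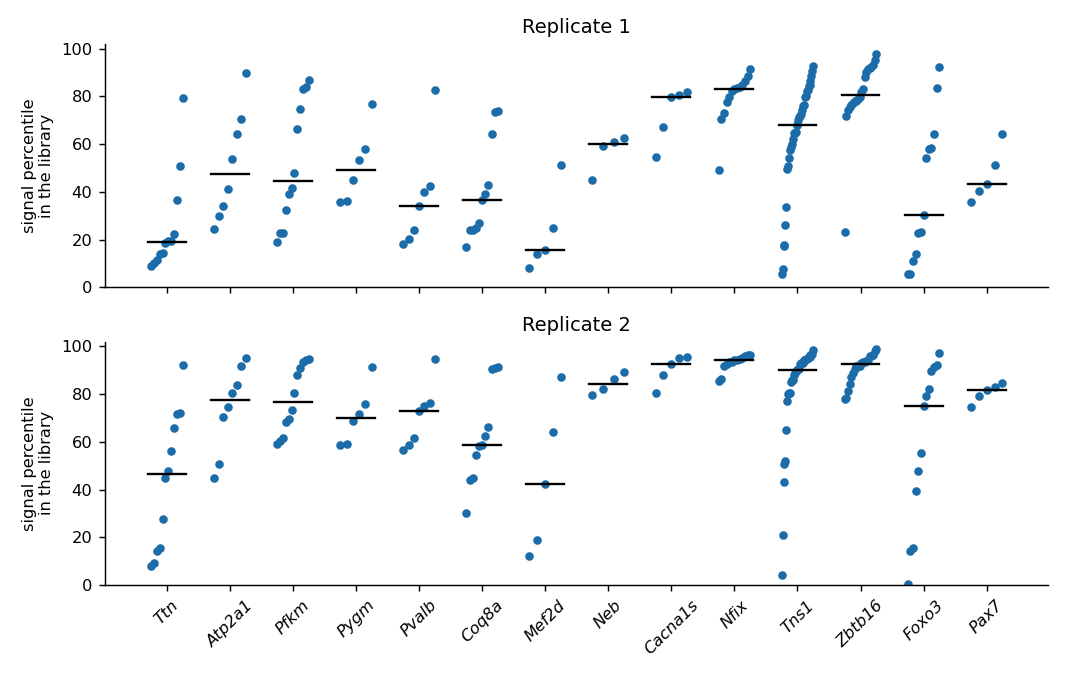
Signal percentile of each member within replicate 1 (top) and replicate 2 (bottom) for 14 genes; points are members and lines medians. Members of Nfix stand above 85 in replicate 2, while those of Ttn range from 8.13 to 92.2.

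Marker genes of other cell types also held members, and their part in the results above was not tested. Over all eligible genes 18.3% (17.7 to 18.9) had a member. That value lay within the interval of each list below except that of tendon cells, but the lists are short and their intervals wide. By density, endothelial genes had an interval of 14.5 to 39.9 per Mb, fibroblast genes 13.8 to 52.9 and Schwann cell genes 15.8 to 72.0. These lay above the 12.5 per Mb of all genes. The interval of neuronal genes lay below 12.5, and those of the other lists held it. Endothelial genes had one in 6 of 14 (42.9%, 17.7 to 71.1) and 24.9 per Mb, led by Pecam1 with 6 members, at medians of 76.0 and 94.1, and Erg with 5. Fibroblast genes had one in 3 of 14, with 7 members in Fbn1, Schwann cell genes in 4 of 11, satellite cell genes in 3 of 9, mural genes in 3 of 10 and macrophage genes in 3 of 14. Tendon cell genes had one in 4 of 6 (66.7%, 22.3 to 95.7). Neuronal genes had one in 6 of 15 but 2.00 per Mb (1.12 to 3.29), below the 10.3 per Mb of the longest 10% of all genes. Erythroid, adipocyte and lymphocyte genes had one in 1 of 8, 1 of 8 and 1 of 11. Keratinocyte genes had one in 1 of 7 and heart genes in 2 of 10. Hepatocyte genes had one in 0 of 15, which allows a share of up to 21.8%. Their later introns had 0 peaks per Mb in replicate 1 and 105.5 in replicate 2.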

How the data were processed

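DNase-seq of gastrocnemius was deposited as 2 libraries of 1 group. Per the file headers, each library's peak lists, footprints and cut-rate segments derive from its own filtered alignments on mm10. No aligner, caller or version is named in these sources. The deposited peaks carry a signal value per peak in an unstated unit, used here only to rank peaks within a library. The authors' cut-rate segments carry a p-value-like false discovery rate of at most 0.05, and the deposited footprints carry 0.01 in every row. Sequencing depth is unknown.

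Overlapping peaks of the longer lists were merged in Python, and a region with a peak of each library (1 bp minimum) was a shared peak. Its midpoint was the mean of the midpoints of the strongest peak of each library. Genes came from GENCODE M21, and the longest transcript was the one with the greatest summed exon length. Motifs were searched on both strands in 150 bp windows and in windows 1 kb away without a peak or exon. GC-matched ratios weight bands of 10 percentage points with at least 20 flanks. Footprint overlap was set against sites moved by 50 bp. Python 3.11.15, numpy 2.4.6, pandas 2.3.3, scipy 1.17.1 and matplotlib 3.10.9 were used, and the scripts were tested on simulated data. Members and lists were chosen with earlier results of these data known. Genes named are the 10 best-ranked members, the 10 genes with most members, the 10 with most per 10 kb among those with at least 5, the 3 with most in each list described, and 20 fixed genes, except for an item that is not reported here; Ddc and genes named as lacking members were added after values were seen. No test between groups was possible. Alternatives are given in the closing section.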

Additional observations from a re-analysis of the deposited data

How the results depend on the processing

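Of 97 alternative values, 60 lay within 1.5 times the reported count or within the SD of the single libraries, and 37 did not. The MEF2 ratio crossed 1 in GC bands. No paired analysis was possible because there is 1 group. With the shorter lists, 3176 members in 1796 genes were left and the CTCF ratio was 49.4. With the strongest 20000 peaks of each library there were 1218 members in 842 genes, 7.46% of shared peaks, a density ratio of 0.520 to first introns, a mean percentile of 88.9, and ratios of 4.70 (E-box CAGCTG), 3.91 (AP-1) and 7.94 (CTCF). Over 5 kb from any start the density ratio was 0.688 and the CTCF ratio 53.1. The CTCF ratio was also 34.1 with the merged midpoint, 47.3 with the transcript of longest span, 75.05 and 26.8 with windows of 100 and 200 bp, and 30.7 with flanks at 2 kb. In GC bands the ratios were 2.45 (E-box), 22.3 (CTCF) and 5.18 (MEF2). Leaving out each library left single lists: members ranged from 10148 to 55252, their share from 15.1% to 21.4%, the density ratio from 0.692 to 0.751, genes from 3495 to 7711, and the mean percentile from 38.6 to 44.9. The ratios ranged from 2.41 to 3.22 (E-box), 17.7 to 24.9 (CTCF), 1.89 to 2.48 (AP-1) and 0.385 to 0.589 (MEF2), and footprints from 53.9% to 71.4%. Apart from fewer peaks or libraries, the cause was not tested. The unknown depth and the shorter list of replicate 1 limit which weak sites count as shared.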

Other observations

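In replicate 1, 3050 of 10148 later-intron peaks (30.1%) did not overlap a peak of replicate 2. The share that overlapped was 69.9%, against 76.8% of all its peaks. The median signal percentile was 9.85 for the peaks without overlap and 52.0 for the others. The 65 genes with 10 or more peaks without overlap held 37.7% of them. Col23a1, which encodes a transmembrane collagen, had 80 peaks in replicate 1 and 21 in replicate 2. Thbs4, a matrix protein of tendon and muscle, had 30 and 1, and 20.2% of its later-intron DNA lay under peaks of replicate 1 against 0.572% in replicate 2. Arhgef11 had 29 and 0, Trappc9 49 and 10, and Svil (supervillin) 37 and 6. Igsf5 had 30 and 2. Glis1, with 63 and 76 peaks, and Prkca, with 44 and 69, had many peaks of replicate 1 alone but more in replicate 2. The difference between libraries in these genes was not tested.

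In replicate 2, 48089 of 55252 peaks (87.0%) were absent from replicate 1's list. The share that overlapped was 13.0%, against 20.2% of all its peaks. The 1292 genes with 10 or more peaks without overlap held 67.6% of them. Msi2 had 302 peaks in replicate 2 and 22 in replicate 1, Zfhx3 277 and 17, and Sipa1l3 183 and 6. Mvb12b had 143 and 7, and peaks of replicate 2 covered 21.4% of its later-intron DNA. These genes were chosen for their counts.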
